A study of Rattus norvegicus with 12 samples.

Results

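The mitochondrial solute carriers described here are the genes of the expression table whose symbol begins with Slc25a and a digit, apart from the carnitine/acylcarnitine carrier Slc25a20, which belongs to fatty acid oxidation. The table held 43 Slc25a genes. Slc25a20 was set aside by that rule and Slc25a18 because its nicotinamide columns hold a failed lookup in place of a number, which left 41 carriers of the 17104 genes with a number in every sample. Cardiac muscle RNA of ZSF1 rats was sequenced in 12 samples, 4 in each of 3 groups. The labels list no compound for the lean controls and the obese rats, and the third group was obese rats with 24 mM nicotinamide (NAM) in the drinking water between weeks 8 and 20 of age. The study asked what raising cardiac NAD+ with NAM does in a rat model of heart failure with preserved ejection fraction. All groups share the ZSF1 background, whose obese rats are known to carry defective leptin receptor alleles, whereas the labels call the obesity diet-induced. Sex, age at sampling, batch and the number of animals behind the samples were all not given in the sources used here, so a p-value here speaks only of the spread among the sequenced samples.

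The SLC25 proteins are mitochondrial carriers, most of them in the inner membrane, which is otherwise nearly closed to charged metabolites. In the heart they pass ADP and phosphate inward and ATP outward for oxidative phosphorylation, and they carry the malate, 2-oxoglutarate, aspartate and glutamate of the shuttle that brings cytosolic NADH electrons to the respiratory chain. Other members bring in cofactors such as coenzyme A, S-adenosylmethionine, folate and NAD+, or iron and glutathione.

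Expression was given as TPM, a length-corrected fraction of all transcripts in a sample, which lets genes be compared but hides how many reads stand behind a value. Mitochondrially encoded genes took a share of 69.1% ± 1.97 (SD, n = 4) in the lean group, 75.1% ± 0.376 in the obese group and 71.3% ± 1.69 with NAM, which moves the share left for all other genes. Each comparison was therefore made as deposited and again as rescaled values. For these, a sample was divided by its median ratio to the geometric mean over the tested genes detected in every sample. The tested genes were the 10526 that reached 1 TPM in 4 or more samples. The rescaling factors were 1.03 to 1.09 in lean, 0.841 to 0.928 in obese and 0.994 to 1.17 in NAM-treated samples. With it the median log2 change of all tested genes went from -0.20 to 0.0032 between obese and lean, and from 0.25 to -0.0078 between NAM-treated and obese. All 8 cardiomyocyte markers listed reached that level, with Tnnt2, the cardiac troponin T gene, at 5892 ± 531 TPM in lean samples. In bulk tissue, fewer cells of a type and less RNA per cell cannot be told apart.

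The carriers covered a wide range of levels, and a pair of them held most of the family's RNA. Slc25a4, the adenine nucleotide translocase of heart and muscle, made up 54.5% ± 1.49 of the summed TPM of the 41 carriers in lean samples (n = 4), 53.2% ± 1.48 in obese and 52.6% ± 0.266 in NAM-treated samples. Slc25a3, which imports the phosphate that ATP synthase uses, added 30.1% ± 1.22, 31.6% ± 1.44 and 32.6% ± 0.146. Together they held 84.6% ± 0.372, 84.8% ± 0.485 and 85.1% ± 0.282, a share that overlapped between all 3 groups. Slc25a11 and Slc25a5 came next, and the other 37 carriers together held 7.17% ± 0.321 in lean, 7.06% ± 0.373 in obese and 6.88% ± 0.227 with NAM. Averaged over all 12 samples, 3 carriers lay at or above 100 TPM, 5 between 10 and 100, 22 between 1 and 10 and 11 below 1 TPM. The mean of Slc25a4 was 1.70 times that of Slc25a3, which was 7.004 times that of Slc25a11. Low levels were noisier: the median coefficient of variation for carriers at or above 10 TPM was 8.59% in lean, 8.94% in obese and 6.78% with NAM, and for those below it 14.7%, 22.7% and 12.8%.

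**Figure D1:**
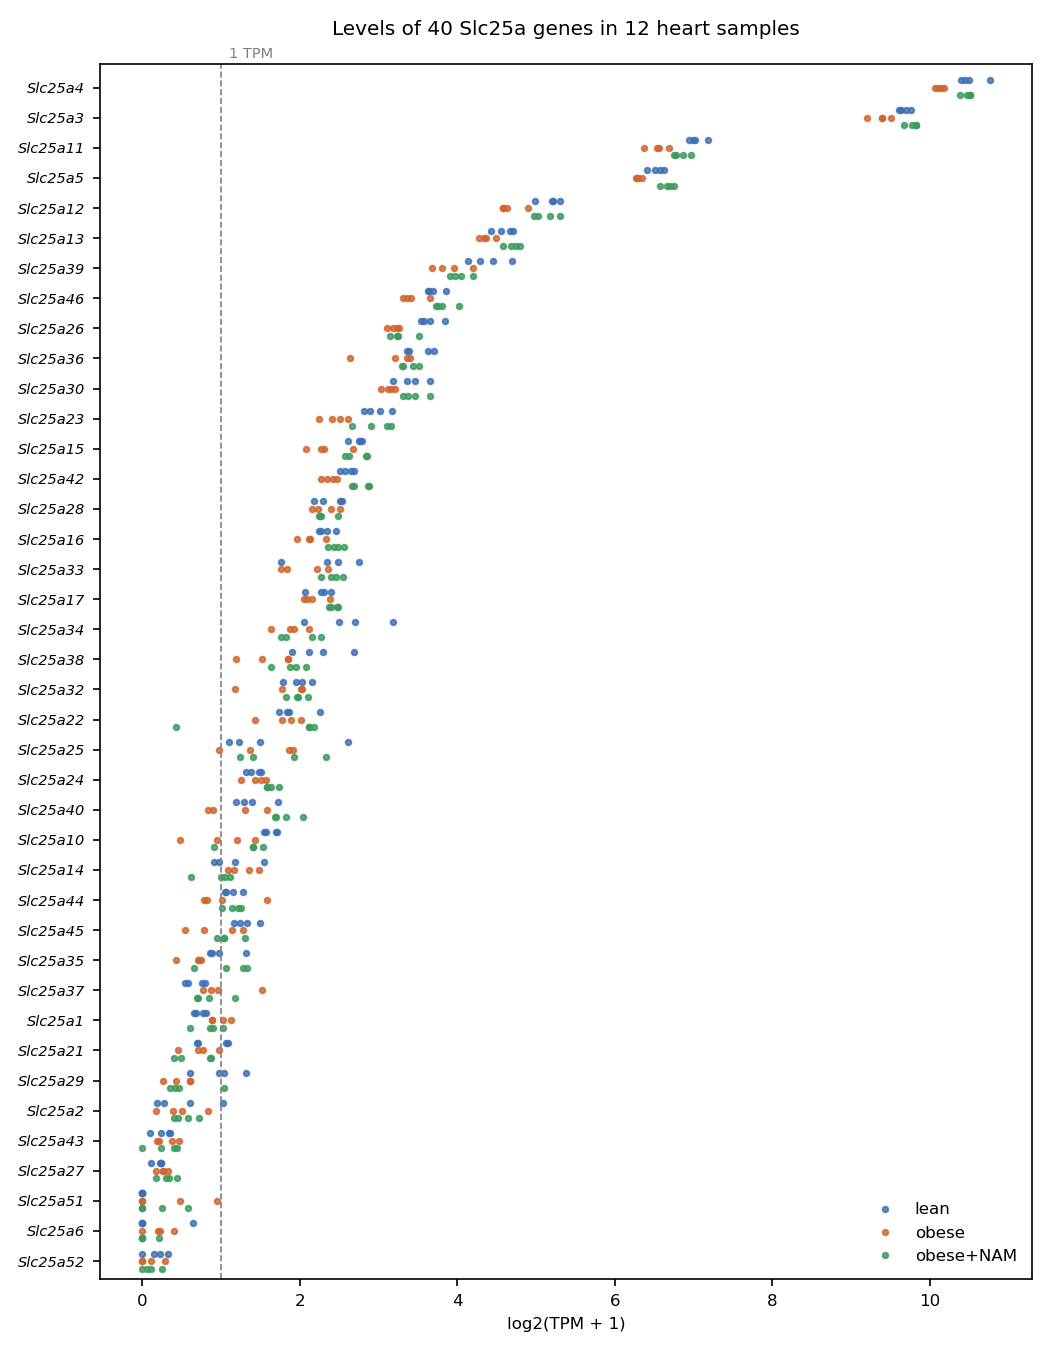
Level of 40 of the 41 carriers as log2(TPM + 1) on the horizontal axis, ordered by mean level for the tested carriers and then the others, with 1 point per sample in blue for lean, orange for obese and green for obese+NAM. The dashed line marks 1 TPM; 3 carriers have means of at least 100 TPM and 11 have means below 1 TPM.

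The promoters of Slc25a4 and Slc25a11 are shown because Slc25a4 was the most abundant carrier and Slc25a11 had the smallest adjusted p of the carriers between obese and lean samples as deposited. The sequences are RefSeq's for the GRCr8 assembly and hold the 250 bases before the gene start, 5′ to 3′ on the gene's strand. They lie at chr16:52805271-52805520 on the plus strand for Slc25a4 and at chr10:55859061-55859310 on the minus strand for Slc25a11. Capitals mark the ETS-type motif CCGGAAG in the first and the GC box GGGCGG in the second, searched on both strands like the other motifs named after them; none of these motifs contains another.
Slc25a4: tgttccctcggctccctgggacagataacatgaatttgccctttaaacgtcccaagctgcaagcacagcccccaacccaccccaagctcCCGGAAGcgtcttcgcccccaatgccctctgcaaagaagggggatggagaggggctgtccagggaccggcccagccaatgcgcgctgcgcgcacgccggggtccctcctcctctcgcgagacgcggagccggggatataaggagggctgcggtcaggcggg
Slc25a11: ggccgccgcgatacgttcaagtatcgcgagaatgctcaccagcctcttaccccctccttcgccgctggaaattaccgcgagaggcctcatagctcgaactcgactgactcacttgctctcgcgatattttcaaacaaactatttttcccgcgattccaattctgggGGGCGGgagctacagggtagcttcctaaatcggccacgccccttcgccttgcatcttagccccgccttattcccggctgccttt
Of the 41 carriers, 33 had a promoter in this table. The GC box occurred in the promoters of 21 of these 33 and in 30.5% of all 33469 promoters of the same length, Slc25a4 not among the 21. The ETS-type motif occurred in 4 carriers, Slc25a3, Slc25a4, Slc25a14 and Slc25a38, and in 7.27% of all promoters. The nuclear receptor motif AAGGTCA occurred in Slc25a34 alone among the 33 and in 3.99% of all promoters, and the NRF1-type motif GCATGCGC in Slc25a13 alone and in 2.2%. The E-box CACGTG was found in 3 carriers and 5.59% of all promoters, and the TATA motif TATAAA in 1 carrier and 12.9%. These matches describe letters in the window only.

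As deposited, many carriers were lower in obese than in lean hearts, and many were higher with NAM than in obese hearts. Of the 31 carriers kept by the same filter, 12 (38.7%) fell in obese against lean hearts and 0 rose (limma, adjusted p under 0.05), where 16.5% of all 10526 tested genes fell and 0.352% rose. In 12 carriers all 4 obese samples lay below all 4 lean samples, which held for 23.2% of all genes, and in 0 above them (0.627% of all genes). With NAM, 13 of 31 (41.9%) rose against obese hearts and 0 fell, beside 28.8% and 0.466% of all genes. In 14 carriers all NAM-treated samples lay above all obese samples, beside 28% of all genes, and in 0 below them (0.333%). The same 4 obese samples stand in both comparisons, so a low or high obese value moves both.

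Much of this shift was shared with the rest of the transcriptome. The median carrier changed by -0.29 on the log2(TPM + 1) scale between obese and lean, beside -0.20 for all tested genes, and by 0.30 between NAM-treated and obese, beside 0.25. After rescaling, 0 of 31 carriers changed in either comparison by limma, where 0.751% of all genes fell and 0.589% rose in obese hearts and 0.513% fell and 0.2% rose with NAM. At an unadjusted p under 0.05, 8 carriers were lower in obese than in lean samples after rescaling, and with NAM 2 were lower and 2 higher than in obese samples. The share of all genes at that unadjusted cut was not counted, so these numbers have no background to be set against. The rescaled median carrier differed by -0.09 between obese and lean, with all genes at 0.0032. Abundant genes were called more often: among carriers with a mean of at least 10 TPM, 6 of 8 fell in obese hearts and 7 of 8 rose with NAM as deposited, beside 32.5% and 47.4% of all genes at that level. Below 10 TPM it was 6 of 23 in each comparison, beside 10% and 21.3% of all such genes; this level was chosen after the values had been seen. Single samples mattered for the number of calls: from 12 it went to 6 when lean replicate 1 was left out, and to 7 when lean replicate 3 or obese replicate 4 was. The share of all genes called in those smaller fits was not counted. Of the 12 carriers that fell, 6 remained called whichever sample was left out (Slc25a3, Slc25a4, Slc25a11, Slc25a12, Slc25a23 and Slc25a26), and of the 13 that rose with NAM, 9 did (all but Slc25a11, Slc25a15, Slc25a16 and Slc25a30).

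**Figure D2:**
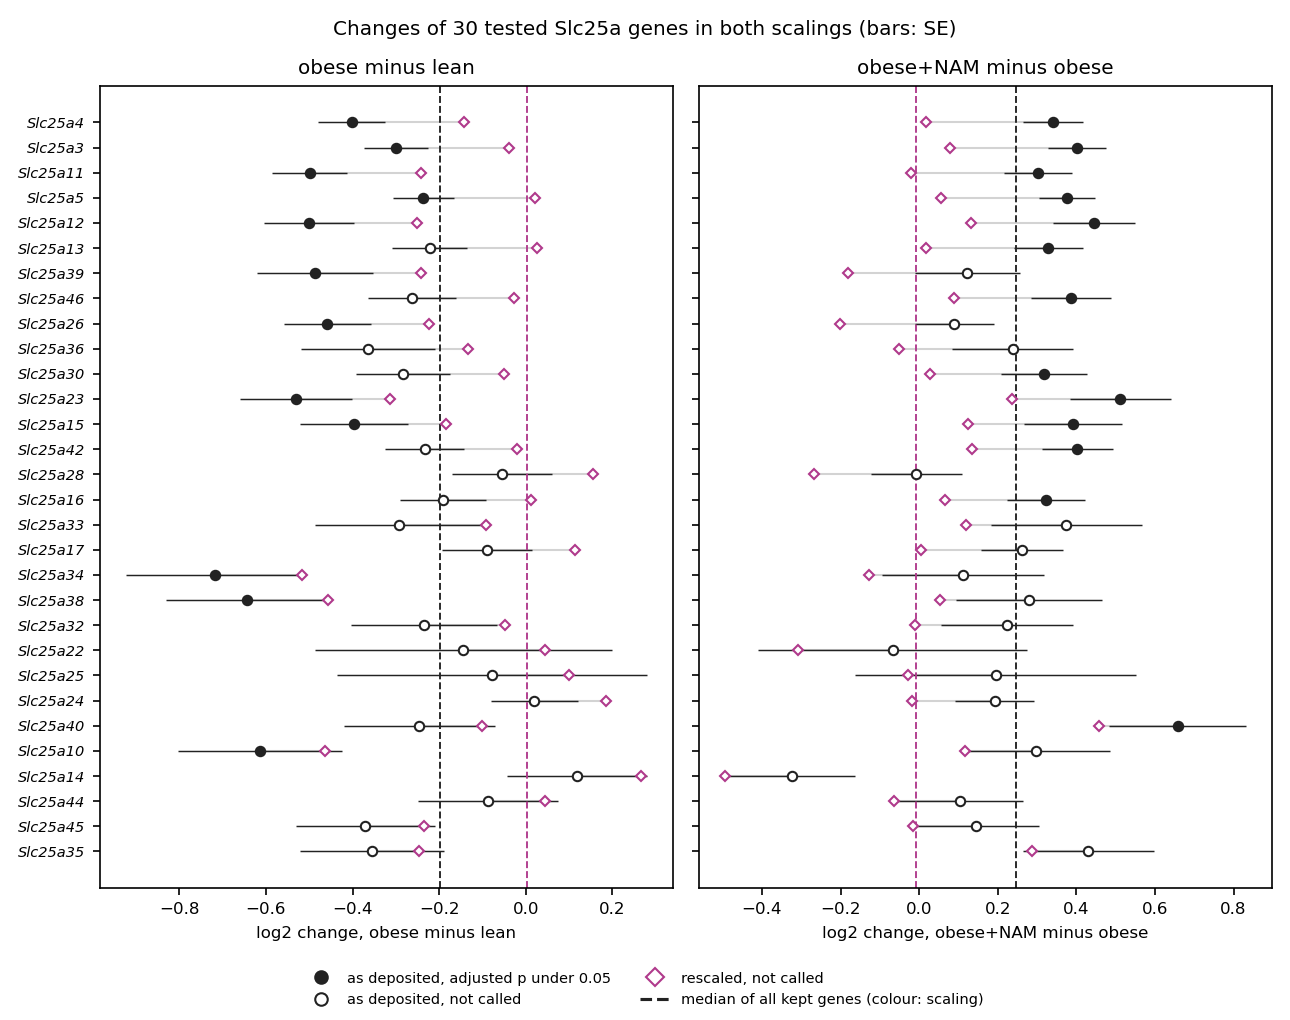
Log2 change of 30 of the 31 tested carriers on the horizontal axes, obese minus lean on the left and obese+NAM minus obese on the right. Black circles are deposited values with their standard error, filled where the adjusted p was under 0.05 (12 and 13 carriers); magenta diamonds are rescaled values, none of them called, and dashed lines mark the medians of all tested genes at -0.20 and 0.0032 on the left and 0.25 and -0.0078 on the right.

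The carriers of ADP, ATP and phosphate fell and rose together as deposited: 3 of 3 tested fell in obese hearts and 3 of 3 rose with NAM. Each has a mean above 10 TPM, a level at which 32.5% of all genes fell and 47.4% rose. Slc25a4 (ENSRNOG00000010830.4) stood at 1731, 1346, 1396 and 1448 TPM in lean replicates 1 to 4, at 1102, 1124, 1075 and 1159 in obese and at 1452, 1331, 1417 and 1454 with NAM. All obese samples lay below all others, and lean and NAM-treated samples overlapped. The log2 change was -0.40 (SE 0.08, limma adjusted p = 0.00552) in obese against lean and 0.34 (SE 0.08, adjusted p = 0.00796) with NAM. Rescaled, its means were 1403 ± 124, 1269 ± 57.0 and 1283 ± 43.1 (SD, n = 4), and the changes of -0.14 and 0.02 did not pass (adjusted p = 0.292 and 0.926). RefSeq annotates pseudogenes for 12 of the 41 carriers, with 1 pseudogene of Slc25a4 and 9 of Slc25a5, and how shared reads were counted was among the steps not given in the sources used here.

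Slc25a3 (ENSRNOG00000008289.7), the phosphate carrier, measured 865, 779, 791 and 826 TPM in lean, 671, 727, 586 and 671 in obese, and 907, 818, 875 and 904 with NAM. The obese samples again lay below both other groups, with log2 changes of -0.30 (SE 0.07, limma adjusted p = 0.0168) and 0.40 (SE 0.07, adjusted p = 0.00416). Rescaled, its means were 774 ± 19.3, 755 ± 57.9 and 795 ± 22.6, and the samples of all 3 groups overlapped. Slc25a5 (ENSRNOG00000039980.4), the more widely expressed adenine nucleotide translocase, measured 98.1, 83.9, 90.4 and 94.6 TPM in lean, 77.7, 80.0, 76.8 and 76.1 in obese, and 100.5, 94.5, 107 and 103 in NAM-treated samples. Its obese samples also lay below both other groups, by -0.24 against lean (SE 0.07, limma adjusted p = 0.0376), while with NAM it rose by 0.38 (SE 0.07, adjusted p = 0.00425). The first of these calls was lost without any one of lean replicates 1, 3 and 4, obese replicates 1, 3 and 4 or NAM-treated replicate 4 (adjusted p up to 0.1002), and after rescaling its sign turned to 0.02.

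The carriers of the malate-aspartate shuttle were led by Slc25a11, the 2-oxoglutarate/malate carrier (ENSRNOG00000003815.4). It measured 145, 126, 122 and 129 TPM in lean, 93.4, 102, 81.5 and 91.7 in obese, and 124, 107, 108 and 116 with NAM. Obese samples lay below both other groups, and NAM-treated samples overlapped the lean ones at their upper end. It fell by 0.50 on the log2 scale in obese hearts (SE 0.09, limma adjusted p = 0.00398), the smallest adjusted p of the 31 carriers in that comparison, and rose by 0.30 with NAM (SE 0.09, adjusted p = 0.0219). The rise was lost without obese replicate 3, NAM-treated replicate 1 or NAM-treated replicate 4 (adjusted p up to 0.0677). Rescaled, it stood at 132, 122, 118 and 123 in lean, 111, 109.9, 93.2 and 105 in obese, and 106, 107, 96.6 and 103 in NAM-treated samples, so both obese groups lay below all lean samples. Those differences of -0.24 and -0.26 did not pass (adjusted p = 0.105 and 0.0671), and the NAM effect changed sign to -0.02. All 4 obese samples lay below all lean samples after rescaling in 2 carriers, Slc25a11 and Slc25a26, of 31, beside 5.31% of all genes, and above them in 0, beside 4.26%.

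The aspartate/glutamate carriers of the shuttle, both regulated by calcium, rose with NAM as deposited, and only Slc25a12 was called lower in obese hearts. The test of their ratio, given further below, did not pass after adjustment. Slc25a12 (ENSRNOG00000022922.6), the form known as aralar in muscle and brain, measured 38.4, 30.6, 36.1 and 35.9 TPM in lean, 22.9, 28.8, 23.0 and 23.8 in obese, and 38.4, 30.6, 35.1 and 31.5 in NAM-treated samples. Its obese samples lay below both other groups, obese replicate 2 nearest to them. It fell by 0.50 on the log2 scale in obese hearts (SE 0.10, limma adjusted p = 0.00791) and rose by 0.44 with NAM (SE 0.10, adjusted p = 0.00948). Slc25a13 (ENSRNOG00000009957.7), the form known as citrin in liver, measured 25.2, 22.5, 24.5 and 20.5 TPM in lean, 19.2, 21.6, 18.5 and 19.7 in obese, and 26.8, 22.9, 25.8 and 24.6 in NAM-treated samples. Lean and obese samples overlapped, with a change of -0.22 (SE 0.09) that did not pass (limma adjusted p = 0.0942), whereas all NAM-treated samples lay above the obese ones, by 0.33 (SE 0.09, adjusted p = 0.0158). Rescaled Slc25a13 stayed at 22.0 ± 1.75, 22.4 ± 0.930 and 22.7 ± 0.527, while Slc25a12 stood at 33.4 ± 2.53, 27.9 ± 2.15 and 30.7 ± 1.98 without a call.

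Slc25a10, the dicarboxylate carrier that exchanges malate or succinate for phosphate, was lower in obese (1.09 ± 0.560 TPM) than in lean samples (2.11 ± 0.189 TPM, limma adjusted p = 0.0415). This call was lost without any one lean sample or without obese replicate 1, 2 or 3 (adjusted p up to 0.0941). Slc25a1, the citrate carrier that exports acetyl units for lipid synthesis, was below the level tested, at 0.665 ± 0.0871 TPM in lean, 0.981 ± 0.162 in obese and 0.813 ± 0.215 with NAM. Its obese samples, 0.847 to 1.18 TPM, lay above all lean samples, 0.578 to 0.760 TPM. In a fit with no filter on low values, this change of 0.25 did not pass (limma adjusted p = 0.181). How many other genes at that level had such an order was not counted.

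Among the 10 carriers of amino acids and glutathione, 8 were tested, of which 4 fell in obese hearts and 4 rose with NAM as deposited, beside 16.5% and 28.8% of all genes. Beside Slc25a12, those that fell were Slc25a39, Slc25a38 and Slc25a15. Slc25a39, which imports glutathione into mitochondria as known from mouse and human cells, went from 20.3 ± 3.55 TPM in lean to 14.1 ± 2.38 in obese (limma adjusted p = 0.0265) and stood at 15.4 ± 1.43 with NAM. Its paralog Slc25a40 stood at 1.67 ± 0.451 TPM in lean and 1.28 ± 0.572 in obese samples. With NAM Slc25a40 rose to 2.53 ± 0.412 TPM, with all NAM-treated samples above all obese ones (log2 change 0.66, SE 0.17, limma adjusted p = 0.0154). On the log2(TPM + 1) scale, that change had the largest size of any tested carrier between NAM-treated and obese samples as deposited. By the ratio of means, Slc25a35 (1.99) stood just above Slc25a40 (1.98). Only 2 of the 4 obese samples reached 1 TPM for Slc25a40. After rescaling, its change was 0.46 (limma adjusted p = 0.225). RefSeq annotates 8 pseudogenes of Slc25a39, so its reads may be shared.

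Slc25a38, a glycine carrier needed for heme synthesis, went from 3.86 ± 1.18 TPM in lean to 2.10 ± 0.639 in obese samples (limma adjusted p = 0.032), and Slc25a15, the ornithine carrier of the urea cycle, from 5.64 ± 0.352 to 4.10 ± 0.930 (adjusted p = 0.0461). With NAM, Slc25a15 rose to 5.64 ± 0.664 TPM (limma adjusted p = 0.0333), although obese replicate 2, at 5.41 TPM, overlapped both other groups. Slc25a38 stood at 2.72 ± 0.472 TPM with NAM, without a call. The falls of Slc25a38, Slc25a39 and Slc25a15 were lost, respectively, without lean replicates 1 or 3 or obese replicates 2 or 4 (adjusted p up to 0.0819), without lean replicates 1 or 2 or obese replicates 2, 3 or 4 (up to 0.0786), and without any one sample other than obese replicate 2 or NAM-treated replicate 2 (up to 0.126). The rise of Slc25a15 was lost without obese replicates 1, 3 or 4 or NAM-treated replicates 1 or 4 (up to 0.0951). Slc25a22, a glutamate carrier, and Slc25a44, a branched-chain amino acid carrier known from mouse brown fat, stood at 2.83 ± 0.645 and 1.21 ± 0.164 TPM in lean samples with no call in any comparison.

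Of the 10 carriers of nucleotides and cofactors, 8 were tested; 1 fell in obese hearts and 2 rose with NAM as deposited, shares no higher than the 16.5% and 28.8% of all genes. The one that fell was Slc25a26 (ENSRNOG00000012831.7), which imports S-adenosylmethionine for methylation inside mitochondria. It measured 10.97, 11.6, 10.6 and 13.4 TPM in lean, 7.64, 8.41, 8.07 and 8.57 in obese, and 8.47, 7.89, 8.40 and 10.4 in NAM-treated samples. Both obese groups lay below all lean samples and overlapped each other. It fell by 0.46 on the log2 scale in obese against lean (SE 0.10, limma adjusted p = 0.0103), and the change with NAM was 0.09 (SE 0.10, adjusted p = 0.523).

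Slc25a42 (ENSRNOG00000020345.6), which brings coenzyme A into the matrix, measured 5.46, 4.96, 5.30 and 4.69 TPM in lean, 4.54, 4.34, 3.82 and 4.07 in obese, and 5.46, 5.36, 6.31 and 6.36 in NAM-treated samples. All obese samples lay below both other groups. Its change in obese hearts was -0.23 (SE 0.09, limma adjusted p = 0.0925), and it rose by 0.40 with NAM (SE 0.09, adjusted p = 0.00817). Slc25a16, linked to mitochondrial coenzyme A, rose with NAM from 3.42 ± 0.465 to 4.52 ± 0.321 TPM (limma adjusted p = 0.0291). That call was lost without obese replicates 1, 3 or 4 or NAM-treated replicates 1, 3 or 4 (adjusted p up to 0.0813).

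Slc25a17 (ENSRNOG00000018920.5), a peroxisomal member of the family that carries coenzyme A, FAD and NAD+, measured 3.19, 4.28, 3.81 and 3.98 TPM in lean, 3.45, 4.23, 3.17 and 3.26 in obese, and 4.55, 4.20, 4.28 and 4.62 in NAM-treated samples. All 3 groups overlapped. No comparison passed (limma adjusted p = 0.571 between lean and obese, 0.0716 between obese and NAM-treated and 0.423 between lean and NAM-treated samples). The pyrimidine nucleotide carriers Slc25a36 and Slc25a33 and the folate and FAD carrier Slc25a32 overlapped in all comparisons as deposited, with means of 10.5 ± 1.36, 4.22 ± 1.39 and 2.97 ± 0.418 TPM in lean samples.

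The ATP-Mg/phosphate carriers, calcium-dependent proteins that adjust the matrix pool of adenine nucleotides, had 1 changed member of 3 as deposited. It fell in obese hearts and rose with NAM, beside 16.5% and 28.8% of all genes. Slc25a23 (ENSRNOG00000047781.2) measured 8.04, 6.40, 7.14 and 6.02 TPM in lean, 5.10, 4.70, 4.33 and 3.74 in obese, and 7.90, 5.33, 6.50 and 7.60 in NAM-treated samples. Obese samples lay below both other groups, by -0.53 against lean (SE 0.13, limma adjusted p = 0.0153), and with NAM it rose by 0.51 (SE 0.13, adjusted p = 0.0125). After rescaling, the changes were -0.31 and 0.24 (adjusted p = 0.172 and 0.318). Its paralog Slc25a24 stood at 1.69 ± 0.170, 1.73 ± 0.251 and 2.11 ± 0.164 TPM without a call, and Slc25a25 at 2.35 ± 1.85, 1.99 ± 0.870 and 2.47 ± 1.23 TPM.

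Slc25a46 (ENSRNOG00000017091.7), which sits in the outer membrane and acts in mitochondrial dynamics rather than transport, measured 11.5, 11.4, 13.5 and 11.9 TPM in lean, 8.94, 11.6, 9.70 and 9.33 in obese, and 15.2, 12.3, 12.5 and 13.0 in NAM-treated samples. Obese replicate 2 overlapped the lean samples (change -0.26, SE 0.10, limma adjusted p = 0.0875), and all NAM-treated samples lay above the obese ones (0.39, SE 0.10, adjusted p = 0.0148). Slc25a30 (ENSRNOG00000001052.7), related to the uncoupling proteins, measured 11.5, 8.13, 9.24 and 10.02 TPM in lean, 7.92, 7.17, 8.27 and 7.72 in obese, and 9.35, 8.93, 11.5 and 10.03 in NAM-treated samples. It rose with NAM by 0.32 (SE 0.11, limma adjusted p = 0.0441), a call that held without lean replicate 1, lean replicate 2 or NAM-treated replicate 2 and was lost without any one of the other 9 samples (adjusted p up to 0.127). Slc25a14, also uncoupling-protein-like, was one of only 2 tested carriers with a positive change in obese hearts, Slc25a24 being the other, and had the lowest change with NAM, -0.32 as deposited and -0.50 rescaled, without passing (adjusted p = 0.144 and 0.175). After rescaling it was the 1 carrier of 31 with all NAM-treated samples below all obese samples, beside 4.3% of all genes, and 0 carriers had them above, beside 4.87%.

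Slc25a28 (ENSRNOG00000016751.5), the mitoferrin of non-erythroid cells that imports iron, passed no test. It measured 3.53, 4.81, 4.71 and 3.90 TPM in lean, 4.26, 3.48, 4.71 and 3.69 in obese, and 4.63, 3.79, 3.82 and 3.76 in NAM-treated samples. All 3 groups overlapped, and the deposited changes were -0.05, -0.01 and -0.06 in the 3 comparisons (limma adjusted p = 0.768, 0.968 and 0.8286). The mitoferrin of red cell precursors, Slc25a37, was below the level tested, at 0.599 ± 0.141 TPM in lean, 1.09 ± 0.529 in obese and 0.834 ± 0.296 with NAM. The erythroid transcripts Hba-a1, Hba-a2, Hbb, Alas2 and Slc4a1 summed to 724 to 1596 TPM in lean, 1662 to 4020 in obese and 487 to 2302 with NAM, with 0 of the 5 called, and their part in the Slc25a37 values was not tested.

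Of 4 carriers with no substrate assigned here, 3 were tested and 1 fell in obese hearts as deposited, beside 16.5% of all genes. Slc25a34 (ENSRNOG00000021526.4) measured 8.06, 4.66, 5.52 and 3.15 TPM in lean, 2.81, 2.68, 3.36 and 2.10 in obese, and 3.83, 3.46, 2.40 and 2.53 in NAM-treated samples. Lean replicate 1 was the highest and lean replicate 4 overlapped the obese samples. Its log2 change of -0.72 (SE 0.21, limma adjusted p = 0.0318) was the largest in size between obese and lean among the tested carriers as deposited, and it was lost without lean replicates 1 or 3 or obese replicates 1, 2 or 4 (adjusted p up to 0.0841). With NAM the change was 0.11 (SE 0.21, adjusted p = 0.712). Slc25a45 stood at 1.49 ± 0.244 TPM in lean, 0.955 ± 0.445 in obese and 1.13 ± 0.234 with NAM, without a call.

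**Figure D3:**
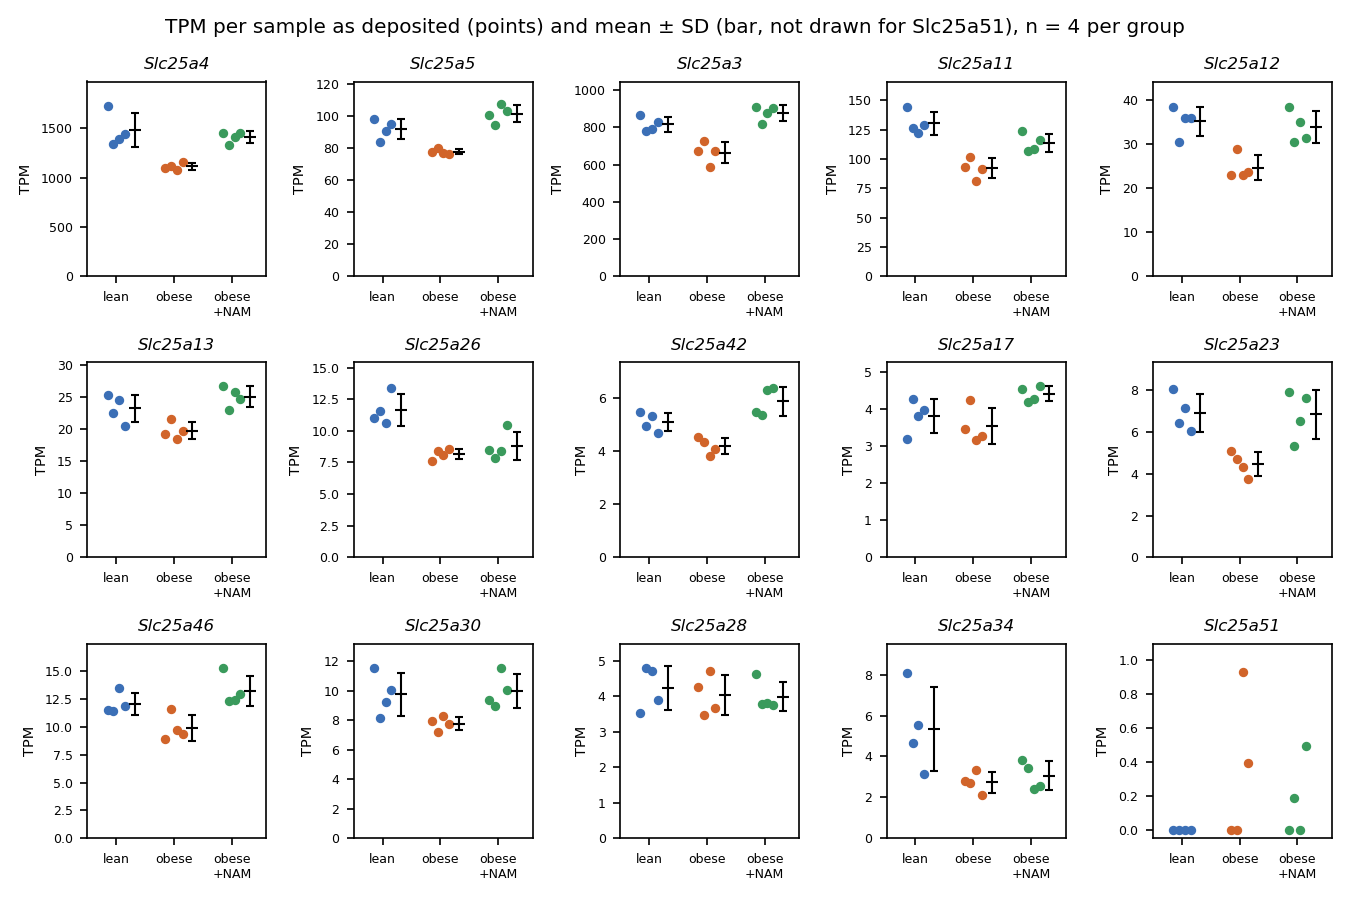
TPM as deposited in each of the 12 samples (points, vertical axes from 0 except for Slc25a51) for 15 named carriers, lean in blue, obese in orange and obese+NAM in green, with the mean ± SD as a black bar (n = 4), not drawn for Slc25a51. For Slc25a4 the obese samples sit between 1075 and 1159 TPM, below all lean and NAM-treated samples, whereas for Slc25a26 the lean samples sit above both obese groups.

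Few carriers were called between NAM-treated and lean hearts, as were few of all tested genes. As deposited, 0 of 31 passed by limma, beside 0.969% of all genes lower and 0.865% higher. At an unadjusted p under 0.05, 4 carriers were lower and 1 higher, a cut at which the share of all genes was not counted. All NAM-treated samples lay below all lean samples in 2 carriers, Slc25a10 and Slc25a26, beside 3.81% of all genes, and above them in 1, Slc25a24, beside 6.94%. After rescaling, 1 carrier passed: Slc25a26 changed by -0.42 (SE 0.09, limma adjusted p = 0.0362), beside 1.59% of all genes lower and 0.77% higher. Its rescaled values were 10.03, 11.2, 10.2 and 12.8 in lean, 9.08, 9.06, 9.22 and 9.80 in obese, and 7.23, 7.93, 7.48 and 9.29 in NAM-treated samples. The call was lost without any one of the 4 lean samples or of NAM-treated replicates 1, 2 and 3 (adjusted p up to 0.111). Rescaled, all NAM-treated samples lay below all lean samples in 4 carriers, Slc25a10, Slc25a11, Slc25a26 and Slc25a39, beside 6.35% of all genes, and above them in 0, beside 5.84%.

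The 11 carriers with a mean below 1 TPM were Slc25a35, at 0.921 TPM over all samples, and 10 that did not reach 1 TPM in 4 samples, with means of 0.0964 to 0.842 TPM. Slc25a35 was tested because 1 lean and 3 NAM-treated samples reached 1 TPM. It stood at 1.03 ± 0.313 TPM in lean, 0.579 ± 0.153 in obese and 1.15 ± 0.422 with NAM without a call. The 10 that were not tested were Slc25a37, Slc25a1, Slc25a21, Slc25a29, Slc25a2, Slc25a43, Slc25a27, Slc25a51, Slc25a6 and Slc25a52, and 5 of them (Slc25a43, Slc25a27, Slc25a51, Slc25a6 and Slc25a52) stayed below 1 TPM in every sample. Slc25a29, a carrier of basic amino acids, stood at 1.01 ± 0.396 TPM in lean, 0.400 ± 0.157 in obese and 0.515 ± 0.363 with NAM. Slc25a21, the carrier of 2-oxoadipate and 2-oxoglutarate, had means of 0.872 ± 0.280, 0.668 ± 0.244 and 0.595 ± 0.266 TPM, and Slc25a2, an ornithine carrier, 0.480 ± 0.410, 0.413 ± 0.279 and 0.462 ± 0.149 TPM. Slc25a43 ranged from 0 to 0.389 TPM and Slc25a27, a relative of the uncoupling proteins found mainly in brain, from 0.0772 to 0.356 TPM.

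Slc25a51 (ENSRNOG00000050061.2), which imports NAD+ into mitochondria as known from human cells, carries the cofactor that cells make from NAM. It was listed at 0 in all 4 lean samples, at 0, 0, 0.934 and 0.397 TPM in obese replicates 1 to 4, and at 0, 0.187, 0 and 0.496 TPM in NAM-treated replicates 1 to 4. Its relative Slc25a52 ranged from 0 to 0.256 TPM over the 12 samples. At these levels the depth needed to compare the groups is unknown, and no fold change is given for either gene. Slc25a6, another adenine nucleotide translocase gene, was listed at 0 in 3 lean, 1 obese and 3 NAM-treated samples and reached at most 0.569 TPM.

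Ratios between related carriers within a sample do not depend on the scaling between samples. The ratio of Slc25a5 to Slc25a4, the more widely expressed to the muscle translocase, was 0.0567, 0.0623, 0.0648 and 0.0653 in lean, 0.0705, 0.0711, 0.0715 and 0.0656 in obese, and 0.0692, 0.0710, 0.0756 and 0.0706 in NAM-treated samples. Both obese groups lay above all lean samples, obese replicate 4 by a narrow margin. The log2 differences from lean were 0.16 in obese and 0.20 in NAM-treated samples, each with an exact 2-sided permutation p = 0.0286, the smallest that 35 splits can give, and an adjusted p = 0.114 over 12 tests. The ratio of Slc25a13 to Slc25a12, citrin to aralar, was 0.657, 0.737, 0.680 and 0.572 in lean, 0.837, 0.747, 0.804 and 0.827 in obese, and 0.698, 0.749, 0.735 and 0.783 in NAM-treated samples. Here all obese samples lay above all lean samples, with a log2 difference of 0.29 (exact permutation p = 0.0286, adjusted p = 0.114), and the NAM-treated samples overlapped both groups. The ratio of Slc25a24 to Slc25a23 was 0.247 ± 0.0374 in lean, 0.396 ± 0.0986 in obese and 0.314 ± 0.0441 with NAM (n = 4), with an exact permutation p = 0.0571 between obese and lean (adjusted p = 0.137). The ratio of Slc25a36 to Slc25a33, at 2.72 ± 0.924, 2.61 ± 0.771 and 2.20 ± 0.345, overlapped between all groups. None of the 12 tests over these 4 ratios passed after adjustment. With a smallest possible p of 0.0286, a ratio could pass only if most of the 12 tests reached that value. The lack of a pass therefore says little about any single ratio.

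**Figure D4:**
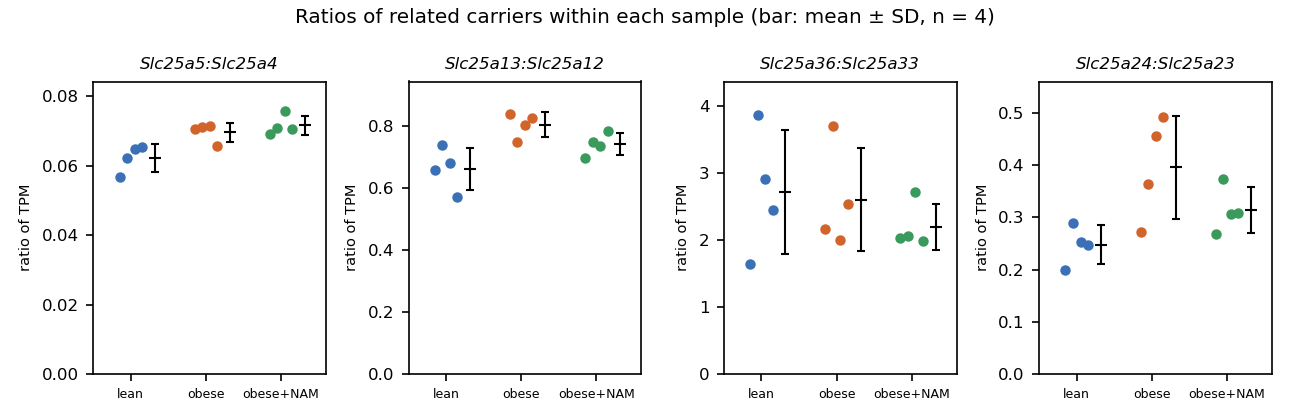
Ratio of TPM of 4 pairs of related carriers within each sample (points, vertical axes from 0), for lean, obese and obese+NAM samples, with the mean ± SD as a black bar (n = 4). The Slc25a5 to Slc25a4 ratio is at most 0.0653 in lean and at least 0.0656 in both obese groups.

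Other transporters of the mitochondrial membranes also changed as deposited. Of 5 tested carrier-family genes under other names or outside the rule, 2 fell in obese hearts (Mtch1 and Mtch2, outer membrane proteins) and 2 rose with NAM (Mtch2 and Slc25a20). The shares of all genes were 16.5% and 28.8%. The carnitine/acylcarnitine carrier Slc25a20 stood at 76.0 ± 4.15 TPM in lean and 73.3 ± 5.95 in obese without a call (limma adjusted p = 0.700), and rose to 95.8 ± 9.22 with NAM (adjusted p = 0.00912). Of 19 other tested genes of mitochondrial transport, 9 fell in obese hearts and 10 rose with NAM as deposited, beside 16.5% and 28.8% of all genes. Among them were the porins Vdac1, Vdac2 and Vdac3. After rescaling, 1 of the 19 fell in obese hearts and 0 rose with NAM, beside 0.751% and 0.2% of all genes. The gene that fell in obese hearts after rescaling too was Mpc1, a subunit of the mitochondrial pyruvate carrier, which is no SLC25 protein. It went from 449 ± 17.2 TPM in lean to 299.7 ± 7.08 in obese and 369 ± 35.1 with NAM, and its rescaled change in obese against lean was -0.32 (limma adjusted p = 0.0392). The rescaled change of Mpc1 with NAM was -0.03 (adjusted p = 0.870). In NAM-treated against lean hearts, Mpc1 and the other subunit Mpc2 were both lower after rescaling, with changes of -0.35 and -0.42 (limma adjusted p = 0.0178 and 0.0186). They were the 2 of 19 called lower there, beside 1.59% of all genes. Of the 16 genes of the import machinery that inserts carriers into the membranes, 5 fell in obese hearts and 5 rose with NAM as deposited. The shares of all genes were 16.5% and 28.8%, the rises being close to the latter. After rescaling, 0 of the 16 passed in either comparison. Of all genes, 0.751% fell and 0.589% rose in obese hearts, and 0.513% fell and 0.2% rose with NAM. Tomm40, the pore of the outer membrane, was lower in NAM-treated than lean hearts after rescaling (-0.65, limma adjusted p = 0.0341). It was 1 of 16 called lower there, beside 1.59% of all genes.

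The carriers' changes ran beside those of cardiomyocyte genes. Of 8 cardiomyocyte markers, 8 fell in obese hearts and 7 rose with NAM as deposited, beside 16.5% and 28.8% of all genes. Among all genes with a mean of at least 10 TPM the shares were 32.5% and 47.4%. After rescaling, 1 marker fell and 1 rose, beside 0.751% and 0.2% of all genes. As deposited, the markers' summed level was 18972 to 21980 TPM in lean, 13383 to 15170 in obese and 16482 to 19132 with NAM. The sum of the 41 carriers was 2712 ± 237, 2097 ± 95.6 and 2689 ± 119 TPM, and 2573 ± 154, 2384 ± 104 and 2442 ± 71.0 after rescaling. As a share of TPM that is not mitochondrially encoded it was 0.878% ± 0.0256, 0.842% ± 0.0454 and 0.939% ± 0.0167. As deposited, fibroblast markers had 1 of 7 higher in obese hearts and 1 lower with NAM, in both cases Pi16. Of all genes, 0.352% were higher in obese hearts and 0.466% lower with NAM. After rescaling, 0 of the 7 were higher in obese hearts and 1 lower with NAM, beside 0.589% and 0.513% of all genes. The fibroblast markers summed to 443 to 480 TPM in lean, 383 to 709 in obese and 379 to 496 with NAM. Endothelial markers had 1 of 7 (Cdh5) lower in obese hearts and higher with NAM as deposited, beside 16.5% and 28.8% of all genes. They summed to 64.7 to 82.7, 50.2 to 70.5 and 65.0 to 79.8 TPM. Smooth muscle and pericyte markers had 1 of 7 tested lower in obese hearts and 2 higher with NAM, and their 8 genes summed to 188 to 201, 142 to 163 and 149.8 to 229 TPM. Macrophage markers, which summed to 29.8 to 46.5, 19.1 to 79.7 and 38.2 to 45.0 TPM, had 0 of 8 called and adipocyte markers 0 of 2. The part of these cell types and of the mitochondrially encoded share in the carriers' changes was not tested.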

How the data were processed

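RNA of cardiac muscle was sequenced from strand-specific NEBNext libraries, per the labels' protocols, in 12 samples that the labels place in 3 groups of 4. The authors deposited TPM per gene, and the submitters' processing notes name the Rnor_6.0 assembly and limma without a version, with aligner and quantifier not given in the sources used here. In the deposited table, 498 of 17602 genes hold a failed lookup (#N/A) in NAM columns in place of TPM and were left out, which leaves 17104. Read depth cannot be read from TPM, and errors are those between samples of a group.

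The 10526 genes that reached 1 TPM in 4 or more samples entered a limma fit (version 3.58.1, R 4.3.3, statmod 1.5.0) of log2(TPM + 1) with 3 group means, 9 residual degrees of freedom and eBayes run with its trend and robust options. Unless another test is named, each adjusted p is limma's, by Benjamini-Hochberg over all kept genes within a comparison, 2-sided with a threshold of 0.05. A fold change on the log2(TPM + 1) scale understates the change of low genes. Rescaling divided each sample by its median of ratios. Ratios of carriers were tested by exact permutation over 35 splits. The values of 1 carrier, which is counted in the totals, are not reported here. Values in every sample are given for 8 carriers chosen by name, the most abundant carrier of each role, those with the 5 smallest p in each of the first 2 comparisons, and those called after rescaling. Carriers, gene lists, tests and this rule were chosen with earlier results of these data known. Same-numbered samples of different groups did not deviate together, so numbers were not used as pairs. RefSeq (GRCr8) gave promoter sequences and pseudogene names only, handled with pandas 2.3.3 in Python 3.11.15. The alternatives tried were other pseudocounts, filters and normalizations, TPM without mitochondrially encoded genes, a plain eBayes, fits to 8 samples, a replicate block and each sample left out.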

Additional observations from a re-analysis of the deposited data

Results flagged for a closer look

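A sample stood far from the other 3 of its group by Dixon's criterion in 12 of 144 groups of 4 examined, where chance alone gives about 1 in 20, or 7.2. Among tested carriers, Slc25a12 was at 28.8 TPM in obese replicate 2 with the others at 22.9 to 23.8, and Slc25a28 at 4.63 TPM in NAM-treated replicate 1 with the others at 3.76 to 3.82. Slc25a22 was at 0.350 TPM in NAM-treated replicate 2, where the others were at 3.35 to 3.53, and Slc25a25 at 5.09 TPM in lean replicate 1 with the others at 1.15 to 1.82. Slc25a35 was at 0.351 TPM in obese replicate 2 with the others at 0.638 to 0.681.

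Among carriers below the level tested, Slc25a29 was at 1.05 TPM in NAM-treated replicate 2 with the others at 0.282 to 0.388, and Slc25a27 at 0.0772 TPM in lean replicate 3 with the others at 0.168 to 0.186. Slc25a6 was at 0.569 TPM in lean replicate 3 and at 0.161 TPM in NAM-treated replicate 4, the other samples of each group being listed at 0. The ratio of Slc25a5 to Slc25a4 was 0.0656 in obese replicate 4 with the others at 0.0705 to 0.0715, and that of Slc25a36 to Slc25a33 was 2.72 in NAM-treated replicate 3 with the others at 1.99 to 2.06. Lean replicate 1 had 66.2% of its TPM in mitochondrially encoded genes, with the other lean samples at 69.8% to 70.4%.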

How the results depend on the processing

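The number of called carriers between obese and lean as deposited, 12 of 31, became 7 of 41 with no filter on low values. It became 6 of 31 in a fit to the 8 samples of both groups. It was 0 with median-of-ratios rescaling, quantile normalization or TPM without mitochondrially encoded genes, which also brought 37 carriers rather than 31 past the filter. Leaving out 1 sample gave 6 to 12. The share of all genes called was counted only in the main fits, as deposited and rescaled. For the other settings, a change in the carriers cannot be told from a change in calling over all genes. Between NAM-treated and obese, 13 became 0 with rescaling or without mitochondrially encoded genes and 1 with quantile normalization (Slc25a4), and leaving out 1 sample gave 9 to 14. Between NAM-treated and lean as deposited, 0 became 1 lower with rescaling or quantile normalization (Slc25a26). It became 1 higher without mitochondrially encoded genes (Slc25a5, 0.25). Rescaled, 1 of 31 became 2 of 14 with a filter on a mean of 5 TPM, and leaving out 1 sample gave 0 to 2. Changes of sign in called carriers were those of Slc25a5 between obese and lean (0.020 rescaled, 0.021 quantile, 0.067 without mitochondrially encoded genes), of Slc25a3 without those genes (0.0068) and of Slc25a11 between NAM-treated and obese (-0.020 rescaled). The cause was not tested. With the replicate number as a block, the counts as deposited were 9, 10 and 0, and 2 for rescaled NAM-treated against lean (Slc25a11 added). Deviations of same-numbered samples correlated between -0.0490 and 0.0724, and those of differently numbered samples between -0.0865 and 0.0787. No shared deviation was seen, so the numbers were not used as pairs, but this cannot show how the samples were handled. Leaving out 1 sample kept the sign of all ratio differences (0.12 to 0.19, 0.16 to 0.23 and 0.01 to 0.06 for Slc25a5 to Slc25a4) other than that of Slc25a36 to Slc25a33 between obese and lean (-0.26 to 0.15). The counting error of low TPM values is unknown, which limits what can be said of the 11 carriers below 1 TPM.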
